A study of Bos taurus with 2 samples.

Results

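Mitochondrial ribosomal protein genes were examined in Holstein cattle (Bos taurus) whole blood, with 1 array for low and 1 for high feed efficiency. They were chosen as every non-control probe whose gene name on the array begins with MRPL (large subunit) or MRPS (small subunit) and a number, which gave 142 probes of 75 genes among 16959 named genes. Of these, 46 were large and 29 small subunit genes. The low efficiency sample is the one of high residual feed intake, the amount eaten in excess of the predicted need. Breed and tissue were shared by both groups; age, diet, treatment and the number of animals behind each sample are not in the labels. Cy3-labelled cRNA made from total RNA was read as spot intensity. With 1 array per group no difference has a replicate check, a test or a p-value, and the number of arrays limits the precision.

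Mitochondria carry their own ribosome, which makes the few proteins encoded by mitochondrial DNA, all of them core subunits of the respiratory chain and ATP synthase. Its RNAs come from mitochondrial DNA, whereas every one of its proteins is encoded in the nucleus, made in the cytosol and imported. Some of these proteins descend from bacterial ribosomal proteins and others were added during the evolution of mitochondria. In blood, mature mammalian red cells have lost their mitochondria, and neutrophils hold few compared with lymphocytes and monocytes.

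Nearly all of the family was above background. The background limit was the median of the negative controls plus 3 robust SDs, 10.9 on both arrays. By this limit 127 of the 142 probes were above background on both arrays, and 74 of the 75 genes had a value, taken from the gene's brightest such probe. Passing the limit does not show that a signal is specific. Of 8 genes that blood cells are not known to make, 5 passed it as well. Among them INS read 39 in low against 35 in high feed efficiency, near the dimmest members. MYH7 read 77 against 72 and APOA1 111 against 105. ACTA1 (453 against 477) and CSN2 (3160 against 3526) were brighter than the median gene of either subunit. MRPL1, whose probe read 9 in low against 8 in high feed efficiency, was below background on both arrays. Among large subunit genes, intensities ran from 41 over a median of 386 to 5629 in low feed efficiency, and from 31 over 318 to 5311 in high feed efficiency. Among small subunit genes they ran from 37 over 369 to 3483 in low feed efficiency, and from 29 over 323 to 2843 in high feed efficiency. No probe of the family was saturated.

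**Figure D1:**
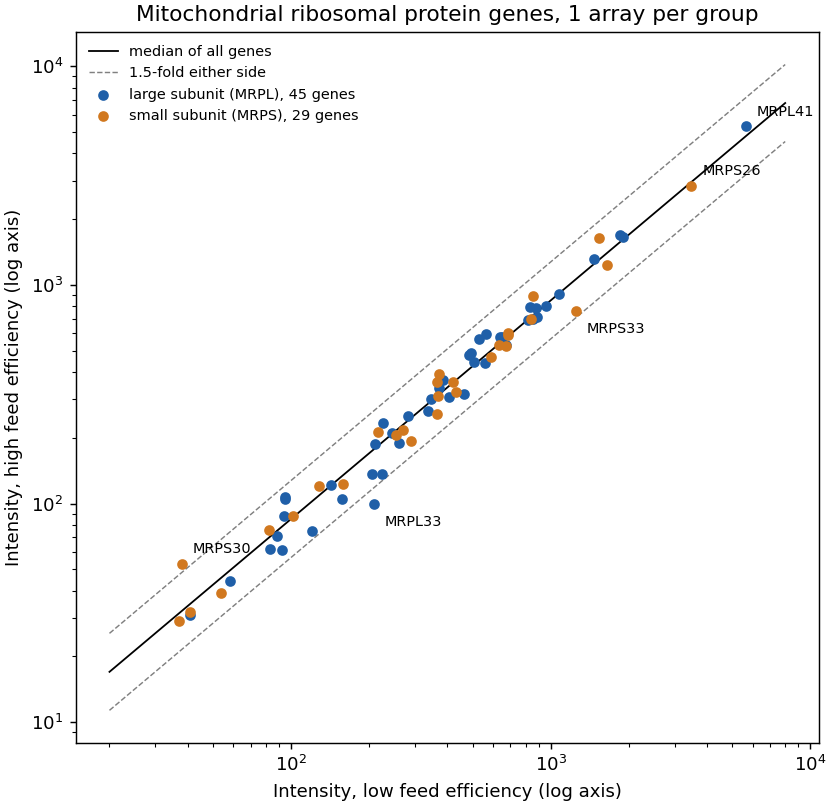
Intensity of the 45 large and 29 small subunit genes in low (horizontal) and high (vertical) feed efficiency, both on log axes; the solid line marks the median of all genes and the dashed lines 1.5-fold either side. MRPL33 lies outside the lower dashed line, MRPS30 outside the upper one, and every other gene between them.

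Neither subunit stood apart between the arrays. Each difference is low minus high feed efficiency on the log2 scale, with arrays first divided by their 75th percentiles (98 and 81), and is given relative to the median of all 10339 measured genes, which was -0.04 before this centring. No member was at least 2-fold higher (0.416% of all genes) or at least 2-fold lower (0.484% of all genes, 0.9% in both directions). MRPL33 was the 1 member at least 1.5-fold higher in low feed efficiency (1.35% of 74, against 3.29% of all genes), and MRPS30 was the 1 at least 1.5-fold lower (1.35%, against 2.62% of all genes). In both directions 5.91% of all genes were at least 1.5-fold apart. The other 72 lay less than 1.5-fold apart, and the family's values spread over an interquartile range of 0.25, against 0.37 for all genes.

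The large subunit was centred close to the small one. The 45 large subunit genes had a median of -0.02, with 22 above and 23 below the median of all genes, above which 50% of all genes lie by construction. The 29 small subunit genes had a median of 0.02, with 17 above and 12 below. The interquartile ranges were 0.28 for the large and 0.25 for the small subunit, and the medians were -0.04 apart (large minus small). The means ran the other way, 0.02 for the large and 0.003 for the small subunit, so the order of the subunits depended on whether medians or means were taken. For single probes, the SD of the difference over replicate spots was 0.10 for bright probes (12 probes) and 0.23 for dim ones (24 probes, at or below the median signal of genes). That SD covers spot-to-spot error on these 2 arrays and not the variation between animals; no member probe was spotted more than once.

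**Figure D2:**
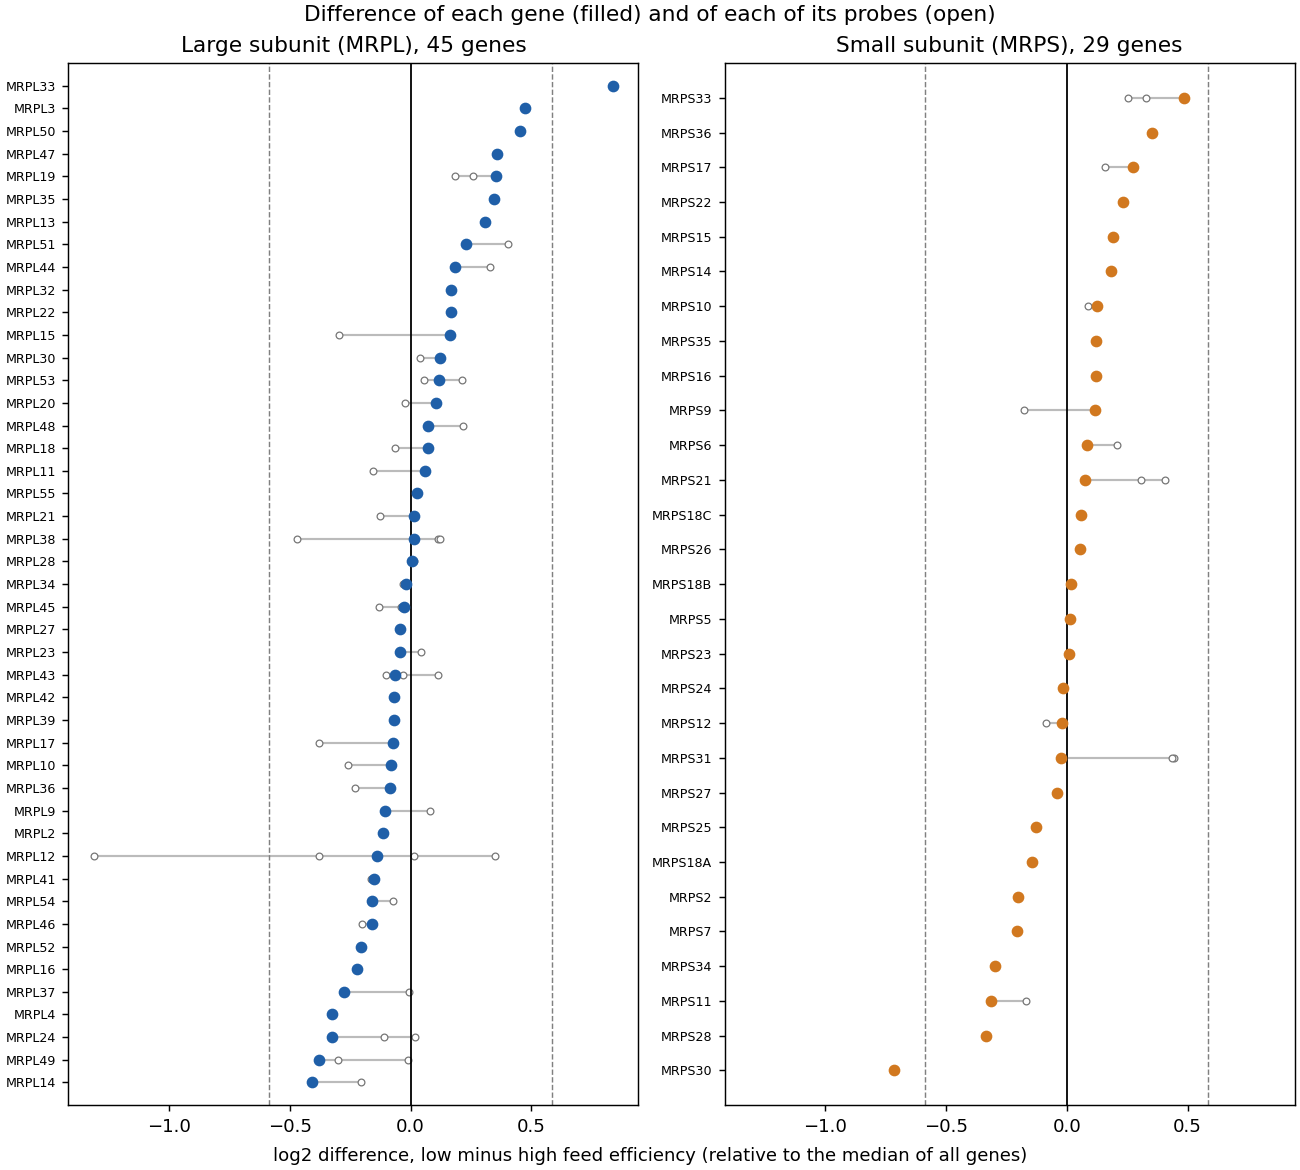
Difference of each large (left) and small (right) subunit gene on the log2 scale, relative to the median of all genes; filled points are gene values, open points are all probes above background on both arrays, and dashed lines mark 1.5-fold. Both subunits run evenly across 0, MRPL33 (0.84) and MRPS30 (-0.72) lie beyond 1.5-fold, and the probes of MRPL12 spread from -1.31 to 0.35.

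Among large subunit genes with higher values in low feed efficiency, MRPL33 came first. It encodes the counterpart of bacterial ribosomal protein L33 and was read at 208 in low against 99 in high feed efficiency, a difference of 0.84 or 1.78-fold, larger than that of 99.1% of all genes. Its value rests on a single probe whose spot in high feed efficiency was not flagged good by the scanner software. MRPL3, which lies near the catalytic centre and whose mutation causes cardiomyopathy in humans, had 224 against 137 (0.47). MRPL50, a protein without a bacterial counterpart, had 121 against 75 (0.45). The next 3 have bacterial counterparts. MRPL47, at the exit of the peptide tunnel, had 92 against 61 (0.36). MRPL19, at the interface of the subunits, had 206 against 137 (0.35), and its 3 probes all lay on the same side, between 0.18 and 0.35. MRPL35 had 157 against 105 (0.34). Beyond 2 replicate-spot SDs were MRPL33, MRPL3 and MRPL19 of these 6, while MRPL50, MRPL47 and MRPL35 were dim and stayed within the wider error of dim spots. Higher members beyond 2 SDs made up 11.1% of the large subunit, against 13.7% of all genes. The cut between bright and dim separates MRPL19 from MRPL35, though their signals were close (percentiles 54.4 and 49.2 among all genes). With normexp background correction MRPL47 had 0.14 and MRPL35 0.22.

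At the other end of the large subunit, differences compared rank by rank were smaller than those of the upper end. MRPL14, which sits at the interface and binds the assembly factor MALSU1, had 95 in low against 107 in high feed efficiency (-0.41), and its other probe had -0.21. MRPL49, specific to mitochondria, had 95 against 105 (-0.38), with 3 probes between -0.38 and -0.01. Both were dim and within 2 replicate-spot SDs. MRPL24, at the tunnel exit, had 530 against 564 (-0.33), but another of its 3 probes had 0.02. MRPL4, which lines the tunnel, had 563 against 599 (-0.33). MRPL37, specific to mitochondria, had 227 against 233 (-0.27) with its other probe at -0.01, so the size of its difference depended on the probe. MRPL16, the counterpart of a bacterial protein that contacts transfer RNA, had 493 against 488 (-0.22). These last 4 were bright and beyond 2 replicate-spot SDs. Lower members beyond 2 SDs made up 11.1% of the large subunit, against 15% of all genes. In both directions the share was 22.2% of the 45 large subunit genes, against 28.7% of all genes. Among bright genes it was 29.4% of 34 large subunit genes, against 41.4% of all bright genes. With normexp the 6 lowest lay between -0.21 and -0.13, all closer to 0.

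In the small subunit, MRPS33 had the highest value. This mitochondria-specific protein of the subunit's head was read at 1253 in low against 760 in high feed efficiency, a difference of 0.49 or 1.40-fold. Its 3 detected probes lay between 0.25 and 0.49, all on the same side. MRPS36 had 290 against 193 (0.35). MRPS17, the counterpart of bacterial protein S17, had 366 against 257 (0.27), with its other probe at 0.16. MRPS22, specific to mitochondria and mutated in a human mitochondrial disease, was dim at 54 against 39 (0.23). MRPS15 had 1652 against 1228 (0.19) and MRPS14 had 432 against 323 (0.18), both with bacterial counterparts. MRPS33, MRPS36 and MRPS17 lay beyond 2 replicate-spot SDs, whereas the other 3 did not. With normexp MRPS22 had 0.10.

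The lowest small subunit value was that of MRPS30, at 38 in low against 53 in high feed efficiency (-0.72). It was lower by 1.64-fold, rests on 1 dim probe, and its spot in low feed efficiency was not flagged good; normexp background correction gave -0.31. MRPS28, related to bacterial protein S1, had 1536 against 1643 (-0.33). MRPS11 had 373 against 393 (-0.31), with its other probe at -0.17. MRPS34, specific to mitochondria, had 852 against 889 (-0.30). Before scaling, the intensities of these 3 were close between the arrays. MRPS7, a head protein, had 366 against 358 (-0.20) and MRPS2 had 217 against 212 (-0.20). All 6 lay beyond 2 replicate-spot SDs, MRPS7 and MRPS2 only just. These 6 lower members made up 20.7% of the small subunit, against 15% of all genes. Higher members beyond 2 SDs made up 10.3%, against 13.7% of all genes. Among bright genes the share in both directions was 36.4% of 22 small subunit genes, against 41.4% of all bright genes. With normexp the 6 lowest ran from -0.31 to -0.07, all closer to 0.

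Among the brightest spots, those of the large subunit were between -0.15 and -0.04 and those of the small subunit ran to both sides; a probe's brightness also depends on its sequence, so it does not rank transcripts. MRPL41, specific to mitochondria, had 5629 in low against 5311 in high feed efficiency (-0.15), and its other probe had -0.16. MRPL27, next to the catalytic centre, had 1892 and 1656 (-0.04), and took either sign across the alternatives. MRPL2, a core protein of the catalytic centre, had 1846 and 1697 (-0.11). MRPS26, specific to mitochondria and the brightest of the small subunit, had 3483 and 2843 (0.06). Next in brightness were MRPS15 (0.19) and MRPS28 (-0.33), given above. With normexp MRPL41 had -0.01, MRPL2 -0.07 and MRPS26 0.18. In the family as a whole 19 of 74 members (25.7%) lay beyond 2 replicate-spot SDs, 8 higher and 11 lower, against 28.7% of all genes, of which 13.7% were higher and 15% lower. Among bright genes alone the share was 32.1% of 56 members, against 41.4% of all bright genes.

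Names in this family do not always match the place of a protein. In structures of mammalian mitochondrial ribosomes MRPS30 and MRPS18A belong to the large subunit, and MRPS36 is now known as a subunit of the 2-oxoglutarate dehydrogenase complex of the citric acid cycle. MRPS18A had 128 in low and 120 in high feed efficiency (-0.14, or -0.07 with normexp). Counting MRPS18A and MRPS30 with the large subunit and leaving out MRPS36, the large subunit had a median of -0.03 over 47 genes and the small subunit 0.04 over 26 genes. The lowest and the second highest value of the small subunit by name thus belonged to proteins outside it.

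Grouping by ancestry and by site gave medians near 0. Large subunit proteins with a bacterial counterpart had a median of 0.02 over 29 genes, 16 of them above the median of all genes, and mitochondria-specific ones had -0.07 over 16 genes, 6 of them above. In the small subunit the medians were 0.04 over 18 genes with a counterpart (11 above) and 0.01 over 11 specific ones (6 above). The small subunit was taken by gene name here, so MRPS18A counted among those with a counterpart and MRPS30 and MRPS36 among the specific ones. The stalk that recruits translation factors, MRPL10, MRPL11 and MRPL12, had a median of -0.08. The tunnel exit had -0.04 over 6 genes and the central protuberance, a landmark at the top of the large subunit, -0.01 over 6 genes. The head of the small subunit had 0.12 over 8 genes, of which 5 lay above the median of all genes, and its body 0.02 over 18 genes. All of these medians were within 0.12 of the median of all genes. The stalk ran from MRPL12 (-0.14) to MRPL11 (0.06), the tunnel exit from MRPL24 (-0.33) to MRPL47 (0.36) and the central protuberance from MRPL52 (-0.21) to MRPL48 (0.07). The head ran from MRPS7 (-0.20) to MRPS33 (0.49) and the body from MRPS28 (-0.33) to MRPS17 (0.27). At the tunnel exit and in the body the mean, 0.01 and -0.01, lay on the other side of 0 from the median.

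Probes of one gene show how far a value depends on the probe. Of 38 members with more than 1 probe above background on both arrays, 25 had every probe on the same side of the median of all genes and 13 had probes on both sides. Over all genes with several such probes, 2939 of 4995 had every probe on the same side. The median range over probes was 0.15, against 0.23 over 4995 genes with several probes. The differences of a gene's 2 brightest probes had a Pearson's r of 0.50 across the 38 members and 0.36 across the 4995 genes; both probes were read on the same 2 arrays, and genes are not independent replicates. MRPL12, of the stalk, was the 1 member whose probes lay more than 1 log2 unit apart. Its 5 probes read 94, 76, 49, 19 and 18 in low feed efficiency against 88, 84, 103, 16 and 12 in high feed efficiency in the same order, so that the middle one had -1.31 and the dimmest 0.35. That middle spot was not flagged good in low feed efficiency. MRPS31 and MRPL38, chosen after their values were seen, were next: 2 dimmer MRPS31 probes had 0.44 while its brightest had -0.02, and 1 of 4 MRPL38 probes had -0.47 while the others ran from 0.01 to 0.12.

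Probes above background on 1 array only added bounds for 3 genes that were measured by another probe. Another MRPS35 probe read 37 in low against 8 in high feed efficiency, at least 2.86-fold higher, where 11 was the lowest detected intensity on either array. The MRPS35 probe above background on both arrays read 41 against 32 (0.12), so its probes differed in size. The bounds of MRPL51 (at least 1.08-fold higher, 14 against 10) and MRPL52 (at least 1.28-fold lower, 10 against 12) were close to 1. MRPL46 and MRPS11 are the members next to each other in the bovine gene order (ARS-UCD2.0, among protein-coding genes), and had -0.16 and -0.31.

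Signal strength moved with the differences. Members were bright, at a median percentile of 68.8 among all genes by signal. With all genes split into 3 classes of equal size by signal, the 41 members of the brightest class had a median of -0.03, against -0.05 for all genes there. The 27 members of the middle class had 0.07, against 0.03, and the 6 of the dimmest class 0.14, against 0.04. Across large subunit genes the difference fell with signal at a Spearman's rho of -0.37 (n = 45), across small subunit genes at -0.04 (n = 29) and across all genes at -0.12. These are descriptions, since the difference and the signal come from the same 2 intensities, and the part of signal in the members' differences was not tested. In the brightest class the interquartile range was 0.21 for members and 0.31 for all genes, in the middle class 0.41 and 0.35, and in the dimmest class, with 6 members, 0.049 and 0.45. By this range the family was narrower than all genes in the brightest class and wider in the middle one. The dimmest class has too few members to compare, and its range leaves out MRPS30 (-0.72), the lowest value of the family.

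**Figure D3:**
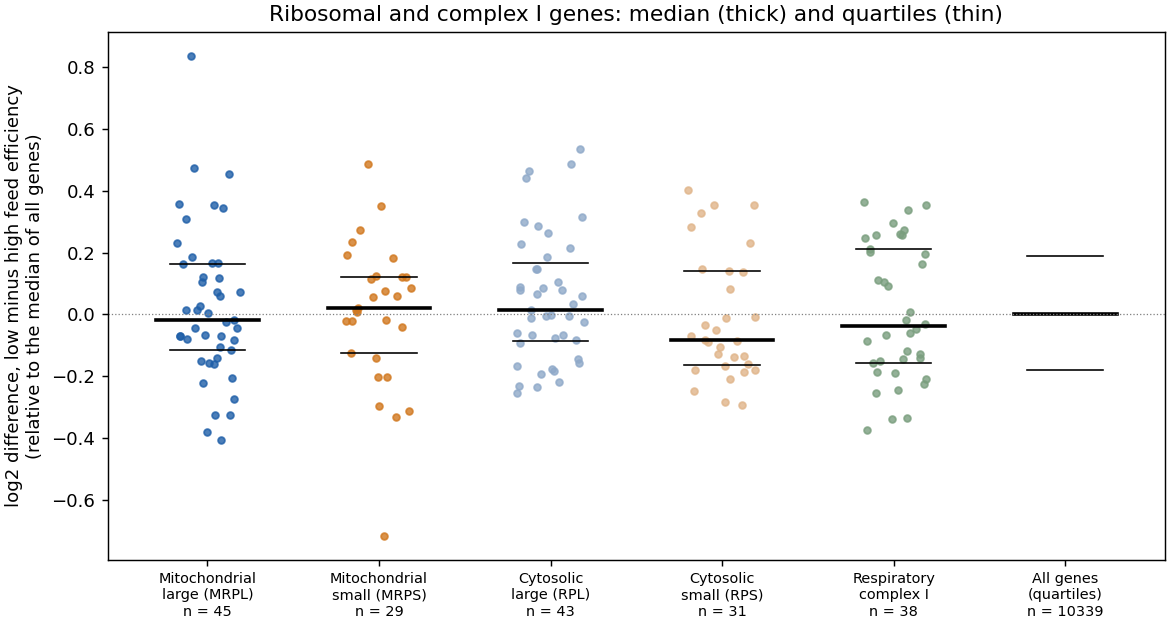
Log2 difference of each gene, relative to the median of all genes, for mitochondrial and cytosolic ribosomal protein genes by subunit and for NDUF genes. The NDUF genes, chosen by name, are labelled respiratory complex I. Thick lines are medians and thin lines quartiles. All 5 medians lie between -0.08 and 0.02, inside the quartiles of all genes.

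Cytosolic ribosomal protein genes and NDUF genes also had medians near 0. Cytosolic RPL genes had a median of 0.01 over 43 genes and RPS genes -0.08 over 31 genes, so there the small subunit was the lower one. Many NDUF genes encode subunits of complex I, beside those that the mitochondrial ribosome itself makes. They were chosen by name, which does not settle that each encodes such a subunit. Over 38 NDUF genes, among them NDUFA4 (0.25) and NDUFA4L2 (-0.34), the median was -0.04. None of these 3 groups had a member at least 1.5-fold apart, against 5.91% of all genes. The extremes were RPL15 (0.54, with 8 probes down to -0.30) and RPL3 (-0.25), RPS3A (0.40) and RPS2 (-0.29), and the complex I subunit genes NDUFV2 (0.36) and NDUFS8 (-0.38). The mean of NDUF genes was 0.01, on the other side of 0 from their median.

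The remaining machinery of mitochondrial translation was similarly close to 0. Ribosomal subunits that carry other names, DAP3, PTCD3, AURKAIP1, CHCHD1, GADD45GIP1 and the genes on the array as ICT1 and MRP63, had a median of -0.03 and 2 of the 7 lay above the median of all genes. AURKAIP1 was farthest below with -0.14 and MRP63 farthest above with 0.22. Of 10 measured translation factors, 5 lay above and 5 below, with a median of 0.03. MTFMT, which formylates the initiator transfer RNA, had 27 against 17 (0.43), and OXA1L, which inserts new proteins into the inner membrane, had 837 against 834 (-0.23). Mitochondrial aminoacyl-tRNA synthetases, which charge transfer RNAs, had a median of 0.05, with 10 of 15 above. RARS2 had 0.25 and SARS2 -0.32.

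Of 18 measured ribosome assembly factors, 1 passed 1.5-fold upward and 1 downward (5.56% each, against 3.29% and 2.62% of all genes). MRM2, which methylates the large ribosomal RNA, had 99 in low against 47 in high feed efficiency (0.84), and its other probe had 0.50. RPUSD4, which places pseudouridine in the same RNA, had 119 against 159 on its 1 probe (-0.65). The list had a median of 0.09, and 10 of the 18 lay above that of all genes. Genes for the upkeep and expression of mitochondrial DNA, with the handling of its RNA, had a median of 0.15, with 7 of 11 above. The helicase gene TWNK had 220 against 145 (0.37), and TEFM, a transcription elongation factor, was close to background at 14 against 15 (-0.34).

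Blood cell markers differed between the arrays by amounts like those of the family or larger. Neutrophil markers had a median of 0.14 (8 of 13 above the median of all genes; summed intensity 96592 in low and 72697 in high feed efficiency), while natural killer cell markers had -0.25 (1 of 7; 11969 and 12511). T cell markers had -0.12 (3 of 11; 26497 and 26316), monocyte markers -0.17 (2 of 7; 29611 and 27966) and B cell markers -0.01 (3 of 7; 9345 and 8132). Erythroid markers had 0.17 (4 of 7; 50313 and 36094) and platelet markers -0.02 (3 of 7; 13863 and 12506). The erythroid list ran both ways: ALAS2, the enzyme that starts heme synthesis in red cell precursors, had 112 in low against 248 in high feed efficiency (-1.38), while the globin gene HBG had 0.36, and the list's mean was -0.10. The other lists ran from MMP9 (-0.19) to CATHL1 (1.01, at 38 against 16) for neutrophils, from NKG7 (-0.61) to KLRB1 (0.20) for natural killer cells and from CD4 (-0.37) to CD3G (0.26) for T cells. They ran from CSF1R (-0.82) to LYZ (0.35) for monocytes, from PAX5 (-0.51) to BLK (0.30) for B cells and from MYL9 (-0.54) to PPBP (0.22) for platelets. Of 8 genes that blood cells are not known to make, 5 were above background, the brightest being the milk protein gene CSN2 with 3160 in low against 3526 in high feed efficiency (-0.39), and INS was closest to 0 (-0.08). Their part in the members' values was not tested, and in whole blood fewer cells of a type and less RNA per cell cannot be told apart.

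**Figure D4:**
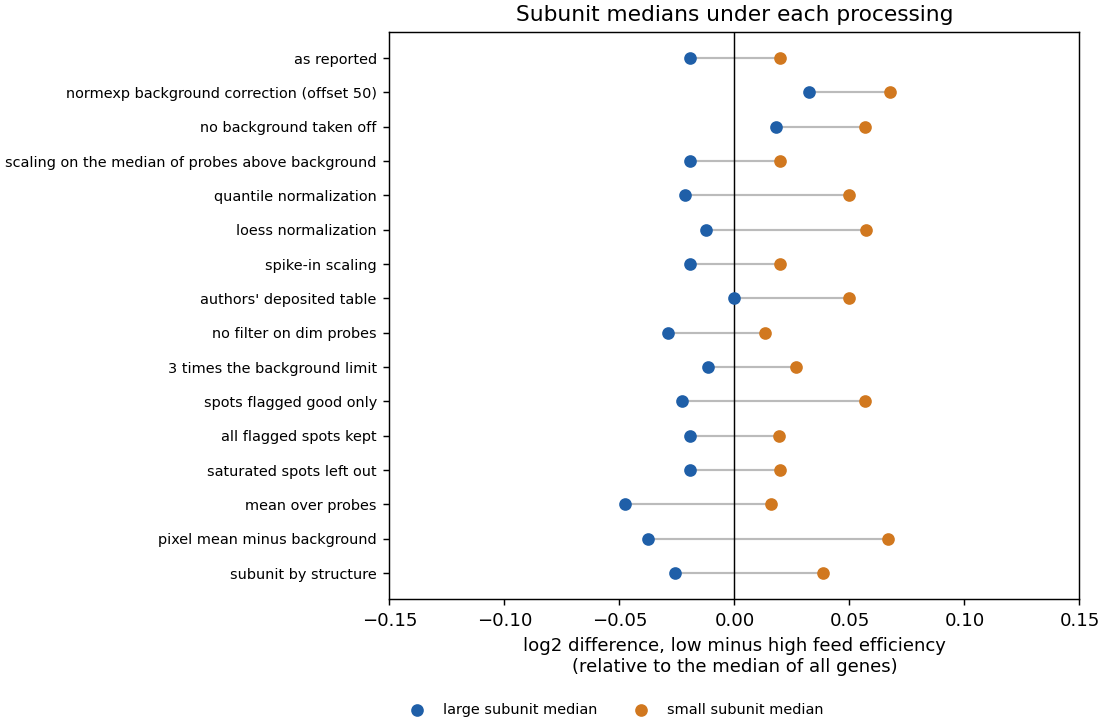
Median log2 difference of large and small subunit genes, relative to the median of all genes, as reported and under 15 other ways of processing the arrays or sorting the genes. The small subunit median lies to the right of the large subunit median in every row, by 0.04 to 0.10. Median scaling, spike-in scaling, keeping all flagged spots and leaving out saturated spots could not move this distance.

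The order of the subunit medians, though not shared by the means, was the same under each alternative tried. Some alternatives could not change it. Scaling on a median or on spike-ins shifts both subunits alike, and a fold threshold does not enter a median. Keeping all flagged spots or leaving out saturated ones touched no member probe. The large minus small distance ran from -0.10 with the pixel mean to -0.04 with normexp background correction. The large subunit median was above 0 with normexp (0.03) and with no background taken off (0.02), 0 in the authors' deposited table and below 0 under the others, so its side of the median of all genes depended on the processing.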

How the data were processed

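The deposited scanner files hold spot intensity at 532 nm, with both arrays on 1 slide, per the file headers (software GenePix Pro 6.1.0.4, scanner GenePix 4000B); Agilent Feature Extraction is listed in the submitters' processing notes. The intensity used was the deposited pixel median minus a background that the software took from control spots, 25 on both arrays. Also deposited were each spot's flag score (100 good, 0 unflagged, -50 not found) and its percent of saturated pixels. The authors' deposited table of log2 values (normalization: not given in the sources used here) followed the scanner intensities only after its values were moved by 1 row (Spearman's rho 1.00, against 0.077 and 0.072 in low and high feed efficiency as deposited) and served as an alternative.

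Bright spots with the flag for not found were dropped from both arrays (408 such spots in low and 283 in high feed efficiency), which left 43096 probes and all member probes. Each intensity was divided by its array's 75th percentile before log2. Genes were read from the brightest of their probes that passed the background limit on both arrays. Differences were centred on the median of all genes. Other genes were named through the RefSeq accession and ARS-UCD2.0; of the 142 member probes 124 had an accession whose current symbol was the array's name, and 18 had none that matched. Calculations used Python 3.11.15, pandas 2.3.3, R 4.3.3 and limma 3.58.1 (normexp with an offset of 50, quantile, loess), and were tested on simulated data. Normexp started from each spot's pixel mean and background median, so it differed from the reported values in its input as well as in its correction.

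Named were the 6 highest, the 6 lowest and the 3 brightest members of each subunit, members with probes over 1 log2 unit apart, those below background on an array, MRPS18A, MRPS30 and MRPS36, and the extremes of each other list. Members and lists were chosen with earlier results of these data known. Alternatives, whose effect the closing section gives, were another background correction, scaling, filter, flag rule, fold threshold or gene value, and the authors' table; a slide block could not be fitted.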

Additional observations from a re-analysis of the deposited data

How the results depend on the processing

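Under 16 alternatives the large subunit median ran from -0.05 to 0.03, the small subunit median from 0.01 to 0.07 and the large minus small distance from -0.10 to -0.04, each within 0.10 of the reported value. Not all of the 16 could move the large minus small distance, as given above. The number of large subunit genes above the median of all genes ran from 18 to 29, and of small subunit genes from 15 to 21. No member was at least 2-fold apart, except 1 with the pixel mean minus background, chosen after seeing the data (MRPL33, 1.03 in place of 0.84); a threshold of 1.5 gave 2. Spike-in scaling on 7 controls moved the median of all genes by 0.34, which the centring removes. Of 30 named members, 29 kept the sign of their difference or were 0 under the alternatives that gave them a value and MRPL27 did not. Scaling on a median or on spike-ins could not turn a sign, because each setting was centred on its own median of all genes. MRPL33 and MRPS30 had no value when spots had to be flagged good. Normexp brought 24 of the 30 closer to 0 and moved 18 by over 1.5 times without a change of sign, among them MRPS30 (-0.31 in place of -0.72), MRPL14 (-0.17 in place of -0.41) and MRPL41 (-0.01 in place of -0.15); the cause was not tested. The mean over probes moved MRPL12 to -0.30, MRPL24 to -0.14, MRPL37 to -0.14 and MRPL49 to -0.23. Of the other alternatives, each moved at most 4 by over 1.5 times. Without a filter on dim probes, 848 genes were at least 2-fold higher and 805 lower, in place of 43 and 50. The counts were 22 and 34 with normexp, 6 and 16 with no background taken off, 10 and 18 at 3 times the background limit, 9 and 13 with spots flagged good only, and 32 and 65 in the authors' table. Dim probes limit precision, with a replicate-spot SD of 0.23. No paired analysis was possible because each group has 1 array.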
